A study of Mus with 8 samples.

Results

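The genes described here are 9 transcription factors and cofactors of blood stem cells, Hlf, Mecom, Meis1, Gata2, Runx1, Erg, Sox17, Tal1 and Lmo2, which were taken by name from the 32285 genes of the deposited matrices. They were followed in 35549 mouse blood progenitor cells that had at least 7500 unique molecular identifiers (UMI, the counted RNA molecules) from genes and at most 10% of them from mitochondrial genes. The cells came from 8 libraries of CITE-seq, a single-cell assay that counts RNA and antibody tags on the cell surface together. The libraries were every combination of 2 ages, 2 sorted fractions and 2 genotypes, with 1 library for each, so no group had replicates. The ages were newborn (P0) and 14 days (P14). The fractions were LK, lineage-negative cells positive for Kit, and LSK, which were positive for Sca1 as well and hold the stem cells and multipotent progenitors. The genotypes were Ifnar+/-, with 1 working copy of the receptor for type I interferon, and Ifnar-/-, with none, so the control mice were heterozygous and not wild type. The labels name no organ and no number of animals per library, so organ and age cannot be told apart.

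Blood stem cells are kept by a set of transcription factors that act on each other's genes and often sit together on DNA. Runx1, Tal1, Lmo2, Gata2 and Erg are known as a shared core of early blood cells, and several of them are used again in mature lineages, Tal1 and Lmo2 in red cells and Gata2 in mast cells. Hlf and Mecom mark the most immature cells and are known to be needed for their upkeep, Meis1 is a homeobox partner of Hox proteins, and Sox17 is a factor of fetal stem cells and of the vessel wall.

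In mm10 coordinates of the GRCm38.p6 annotation, Hlf spans chromosome 11 from 90336535 to 90390917 and Meis1 lies on the same chromosome from 18880428 to 19019651. Runx1, from 92601466 to 92826074, and Erg, from 95359169 to 95586600, are both on chromosome 16. Mecom covers 558464 bases of chromosome 3, from 29951296 to 30509759. Gata2 is on chromosome 6 from 88193891 to 88207032, and Tal1 on chromosome 4 from 115056426 to 115071755. Lmo2 is on chromosome 2 from 103957903 to 103981878, and Sox17 on chromosome 1 from 4490928 to 4497426. These are whole gene spans. The reads came from the 3′ end of the transcripts, so levels are compared between cells and not between genes.

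The libraries held 2411 to 5891 cells and 100486590 to 302507736 gene UMI, with a median of 25597 to 46231 UMI per cell. Levels are given as CPM, the UMI of a gene scaled to a common library total. Of the cell barcodes 148 occurred in 2 or more libraries. Of the barcodes with at least 2000 UMI, 24.2% were under the limit of 7500 in the newborn LSK Ifnar-/- library, 2.13% to 5.90% in the other 3 LSK libraries, 18.3% and 16.6% in the P14 LK libraries and 7.90% and 8.96% in the newborn LK libraries. Ifnar1 RNA was 14.7 to 33.4 CPM in the 4 Ifnar-/- libraries and 15.8 to 36.9 in the 4 Ifnar+/- libraries, and the labels do not say which part of the gene the allele lacks, so these 3′ counts do not check the genotype. Ly6a, which encodes Sca1 and is known as an interferon-induced gene, was at 75.9 CPM in newborn LSK Ifnar+/- and 30.8 CPM in newborn LSK Ifnar-/- cells. The LSK gate reads the protein of this gene, so what the gate admits and the genotype cannot be told apart in the LSK comparisons.

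LSK against LK asks how the factors differ between the fraction that holds stem cells and the bulk of Kit-positive progenitors. Hlf, Mecom, Meis1 and Erg were at least 1.5-fold higher in LSK in all 4 pairs of age and genotype, and also at least 2-fold higher, as 10.4% of all genes were. Lmo2 was on the LSK side by less. Tal1 was on the LK side in the library sums, but with equal weight for each cell class its log2 ratio was 0.17 in the newborn Ifnar-/- and 0.02 in the P14 Ifnar+/- pair. That weighting uses only named classes that both libraries share, 2 in the newborn Ifnar-/- and 3 in each P14 pair. It leaves out unnamed cells, 69.5% and 55.4% of newborn and 39.1% and 36.9% of P14 LSK Ifnar+/- and Ifnar-/- cells. Runx1 was on the LSK side by less when counts were scaled by library totals, but its log2 ratio was -0.08 and -0.11 with scaling by the trimmed mean of M values (TMM) in the newborn Ifnar-/- and P14 Ifnar+/- pairs. Gata2 was on the LSK side in newborn and on the LK side in P14 mice, but this depended on scaling and weighting. TMM scaling put its log2 ratio in the newborn Ifnar+/- pair at -0.13. Equal weight for each cell class put those of the P14 pairs at 0.50 and 0.49 and that of the newborn Ifnar-/- pair at 0.01. The newborn Ifnar+/- pair was then level. The 4 called members were 4 of the 8 members with enough UMI, beside 20.5% of all 13328 genes tested that were higher by this rule, and beside 4.43% that were lower, a direction in which no member was called.

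Hlf, a PAR-domain leucine zipper factor, was at 48.7 CPM in newborn LK Ifnar+/-, 37.0 in newborn LK Ifnar-/-, 91.5 in P14 LK Ifnar+/- and 73.6 in P14 LK Ifnar-/- cells. In LSK cells it was at 268, 477, 404 and 407 CPM in the same order. Every LSK library lay above every LK library. The share of all genes that separate the fractions in this way was not counted, here or for the genes below. In all 4 pairs 58.3% of genes tested were higher and 22.4% lower in LSK. The log2 ratio of LSK over LK was 2.46 and 3.69 at birth in Ifnar+/- and Ifnar-/-, and 2.14 and 2.47 at 14 days. Intervals of these ratios cover counting error only, and the newborn Ifnar-/- interval, 3.66 to 3.72, shows how narrow they are at this depth.

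Mecom, a zinc finger factor also called Evi1, had 10.7, 6.93, 17.6 and 15.3 CPM in the 4 LK libraries in that order and 65.5, 158, 79.8 and 92.6 CPM in the 4 LSK libraries. Again no LK library reached an LSK library. Its log2 ratios were 2.62 and 4.51 at birth and 2.18 and 2.60 at 14 days, so the newborn Ifnar-/- pair gave the largest ratio in any of the 12 pairs among the 8 members other than Sox17. Meis1 had 40.4, 35.6, 79.0 and 72.1 CPM in LK and 120, 164, 190 and 191 CPM in LSK, with log2 ratios of 1.57, 2.20, 1.27 and 1.41. Erg, an ETS factor, had 22.2, 18.97, 41.4 and 34.4 CPM in LK and 74.1, 100.01, 92.7 and 98.5 CPM in LSK, with log2 ratios of 1.74, 2.40, 1.16 and 1.52. For both genes the fractions did not overlap.

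Lmo2, the LIM-domain bridge of the Tal1 complex, had 245, 245, 318 and 302 CPM in LK and 442, 548, 462 and 446 CPM in LSK. The fractions did not overlap, and its log2 ratios were 0.85, 1.16, 0.54 and 0.56. The ratios at 14 days were under the 1.5-fold limit, which is 0.58 on this scale. Runx1 had 125, 119, 123 and 102 CPM in LK and 158, 151, 130 and 122 CPM in LSK, so the P14 LSK Ifnar-/- library lay below 2 of the LK libraries. Its log2 ratios were 0.34, 0.34, 0.07 and 0.26.

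Tal1, the basic helix-loop-helix partner of Lmo2, had 59.1, 55.9, 51.7 and 58.3 CPM in LK and 35.9, 50.5, 43.0 and 43.3 CPM in LSK. All 4 LSK libraries were below all 4 LK libraries, with log2 ratios of -0.72, -0.15, -0.27 and -0.43, although equal class weights turn the newborn Ifnar-/- and P14 Ifnar+/- pairs to 0.17 and 0.02. Only the newborn Ifnar+/- pair passed 1.5-fold, where 9.48% of genes were lower. Gata2, a zinc finger factor of stem cells and mast cells, had 43.4 and 39.1 CPM in newborn LK and 47.2 and 63.5 CPM in newborn LSK cells, but at 14 days it had 96.8 and 86.7 CPM in LK and 68.0 and 68.3 CPM in the LSK cells of that age. It was therefore on the LSK side at birth, with log2 ratios of 0.12 and 0.70, and on the LK side at 14 days, with -0.51 and -0.34. Both directions were those of the whole library sums. With each cell class that both fractions share given equal weight the P14 ratios were 0.50 and 0.49, on the LSK side. The newborn Ifnar-/- ratio was then 0.01, and the newborn Ifnar+/- pair was level.

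Sox17 was near absent. It had 6 and 1 UMI in the newborn LK libraries, 19 and 19 UMI in the newborn LSK libraries, and 0, 0, 1 and 0 UMI in the 4 P14 libraries. The 46 UMI lay in 39 of the 35549 cells. In the P14 LK Ifnar+/- library 0 of 2411 cells had a UMI, which by 3 counts of the total allows a share of cells with a UMI, not of cells that express the gene, of up to 0.124%. Markers of endothelial cells, which express Sox17, summed to 3.95 to 12.2 CPM over 6 genes, with the highest sum in newborn LSK Ifnar-/- cells and Lyve1 at 0 in 2 P14 libraries; their part was not tested. Its relative Sox18 was higher in LSK in all 4 pairs, with 8.63 and 16.6 CPM in the newborn and 1.97 and 2.08 CPM in the P14 LSK libraries.

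**Figure D1:**
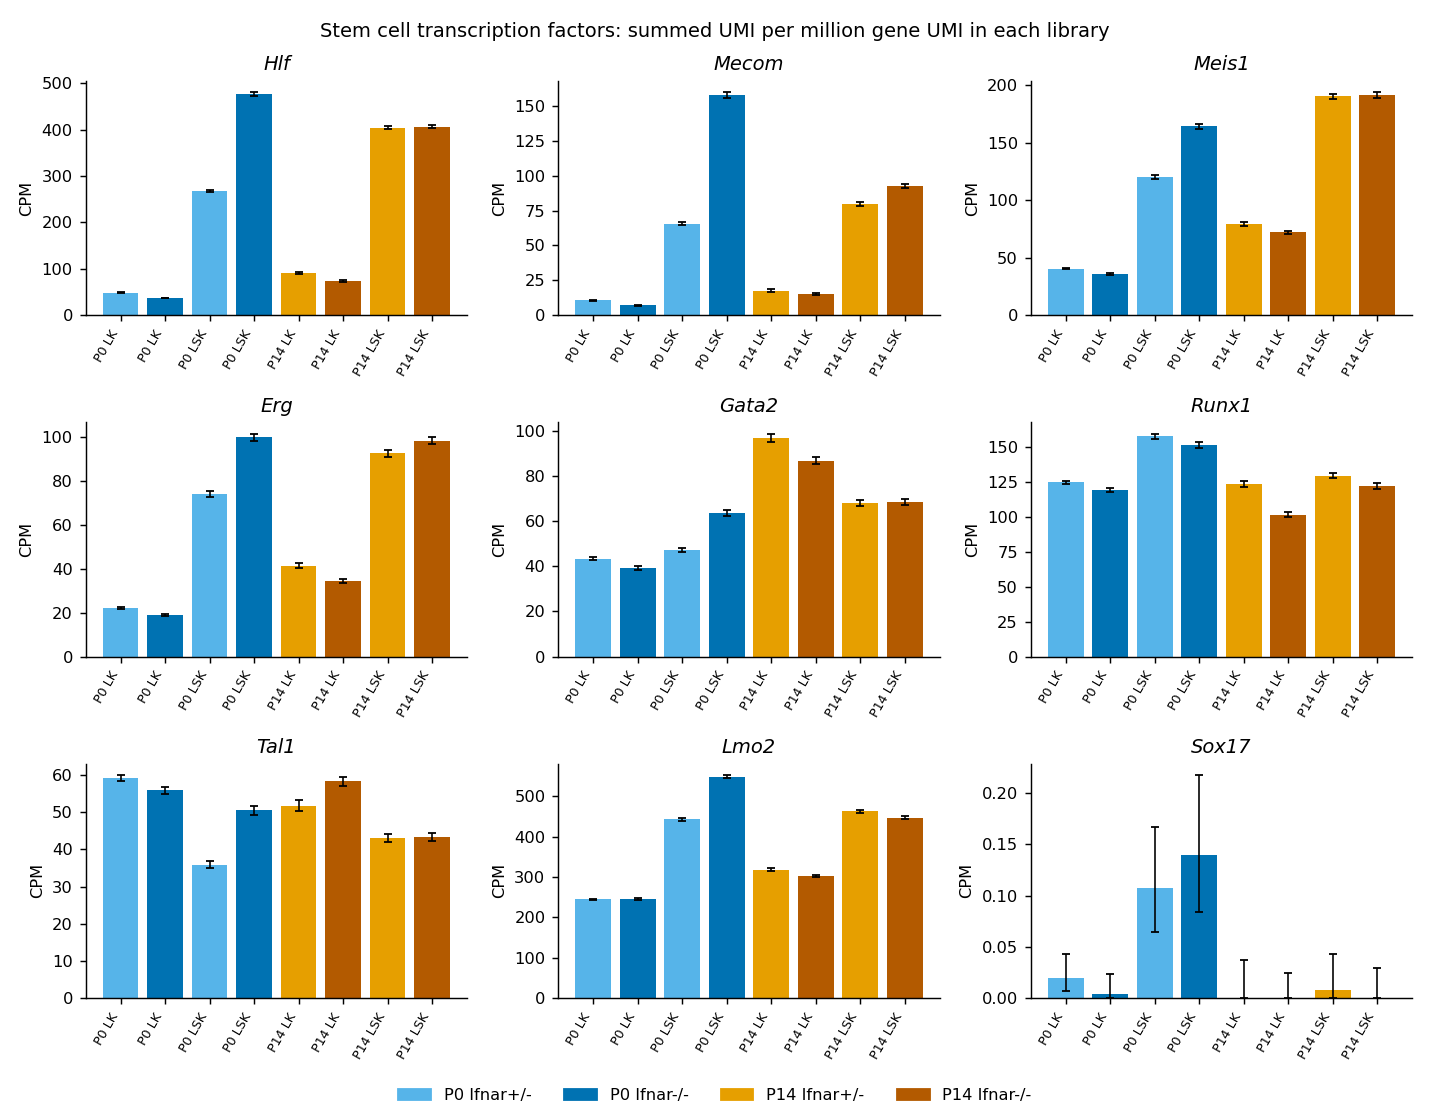
CPM of the 9 genes in each library, as bars from 0 with 95% counting intervals; the colour gives age and genotype and the axis label age and fraction. Hlf, Mecom, Meis1 and Erg are higher in all 4 LSK than in all 4 LK libraries, Tal1 is lower, and Sox17 is at 0.139 CPM at most. The share of all genes that separate the fractions so was not counted.

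The median of the 8 members' log2 ratios was 1.21, 1.68, 0.85 and 0.99 in the 4 pairs, beside 0.25, 0.43, 0.18 and 0.23 over all genes tested. The counts of members are therefore set against a table that leaned to the LSK side. With TMM scaling in place of totals, all ratios of the newborn Ifnar-/- pair shift by -0.42, which puts Runx1 at -0.08 there, and those of the newborn Ifnar+/- pair shift by -0.25, which puts Gata2 on the LK side. All 4 calls held under this scaling.

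For Hlf both the share of cells with a UMI and the UMI per such cell were higher in LSK in each pair. After each cell was thinned to 7500 UMI, Hlf was found in 22.9%, 18.7%, 30.4% and 30.7% of LK cells and in 71.5%, 89.9%, 79.9% and 84.1% of LSK cells. Without thinning the same shares were 35.3% to 52.6% of LK and 89.2% to 96.5% of LSK cells. A thinned cell with Hlf held 2.75 Hlf UMI on average in LK and 3.32 in LSK in newborn Ifnar+/-, and 2.63 and 4.40 in newborn Ifnar-/- mice. At 14 days the values were 3.66 and 4.41 in Ifnar+/- and 3.07 and 4.29 in Ifnar-/-. Mecom was found in 6.14% to 13.02% of LK and 33.1% to 60.04% of LSK cells. Free RNA in barcodes of at most 100 UMI carried Hlf at 20.6 to 58.8 CPM in the LK and 209 to 374 CPM in the LSK libraries. Erythroid-like LK cells, a class taken to lack these genes, had Hlf in 2.32% to 5.74% of cells and Mecom in 0.387% to 1.89%, and shares of that size are read as background. The class was not uniform, so this limit is rough. In the newborn LK libraries Hlf was found in 1.01% to 1.08% of its cluster 9 and 10.9% to 24.5% of its cluster 20 cells.

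Other genes of these pathways were read from lists. Of 19 tested stem cell regulators outside the 9, 15 were higher in LSK in all 4 pairs and 1 was lower, beside 20.5% and 4.43% of all genes. Hoxa10 had log2 ratios of 2.55, 3.64, 2.02 and 2.11, and Nkx2-3, a homeobox gene, had 2.67, 4.12, 2.27 and 2.54. The gene that was lower was Gfi1b, a repressor of red cell and platelet precursors, at -2.21, -2.79, -1.72 and -2.47. Of 14 stem cell surface and target genes 10 were higher and 1, Itga2b, was lower. Procr, which encodes the surface receptor CD201, had log2 ratios of 2.84, 4.10, 2.22 and 2.72.

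Of 12 partner proteins of the 9 factors, 0 were called in either direction. The list includes Ldb1, Lyl1, Cbfb and Fli1, and its median log2 ratios were 0.44, 0.69, 0.34 and 0.42. Of 15 tested relatives of the members 7 were higher, among them Runx2, Ets1 and Gata3, and 1 was lower, the red cell factor Gata1 at -3.30, -3.28, -3.46 and -3.98. Of 12 tested lineage regulators 0 were higher and 5 were lower, namely Gata1, Klf1, Zfpm1, Cebpa and Cebpe.

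The cells were grouped by their other genes to see where each factor was. The 9 members, interferon, sex, mitochondrial and cell cycle genes were left out of the clustering, which gave 23 clusters. Of these clusters 18 were named from marker lists, by a scoring rule set after the clusters were seen, and 5 with 13274 cells stayed unnamed. One of the unnamed, cluster 3, scored highest for HSC markers but stayed unnamed because its top 10 genes held none of them and 1 marker of another class. Cluster 1 was kept as HSC-like with a lower score and also none of them in its top 10, where no marker of another class stood, so the HSC-like shares depend on this rule. Cluster 3 held 24.6% of newborn LSK Ifnar+/- and 39.3% of newborn LSK Ifnar-/- cells, 4.82% and 3.83% of the newborn LK libraries and at most 0.0650% of a P14 library. HSC-like cells, named from Procr, Fgd5, Mllt3, Hoxb5 and 6 other markers, were 4.58% and 3.17% of the newborn LK libraries and 12.9% and 13.6% of the P14 LK libraries. They were 18.9% of newborn LSK Ifnar+/-, 40.2% of newborn LSK Ifnar-/-, 46.6% of P14 LSK Ifnar+/- and 50.1% of P14 LSK Ifnar-/- cells. The sort sets these shares in part.

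Hlf had 501 to 659 CPM in HSC-like cells over the 8 libraries, 52.6 to 403 in lymphoid-primed-like cells, 11.98 to 26.0 in neutrophil progenitor-like cells and 4.20 to 57.2 in erythroid-like cells. Mecom had 108 to 256 CPM in HSC-like, 4.26 to 58.3 in lymphoid-primed-like and 0.933 to 1.71 in neutrophil progenitor-like cells. For both genes no other named class overlapped the HSC-like range, and the share of all genes so set apart was not counted. The unnamed cluster 3 had Hlf at 301 to 489 CPM, below that range, and Mecom at 59.6 to 156 CPM, which overlaps it. Erg was spread wider, with 93.2 to 117 CPM in HSC-like and 38.0 to 126 in lymphoid-primed-like cells. Lmo2 had 500.0 to 660 CPM in HSC-like cells, 270 to 460 in megakaryocyte-like cells and 75.5 to 89.7 in mast cell or basophil-like cells, its lowest class. Meis1 had 212 to 254 CPM in HSC-like and 103 to 237 in megakaryocyte-like cells, classes whose ranges overlap.

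Gata2, Runx1 and Tal1 had their highest median outside the HSC-like cells. Gata2 was at 271 and 307 CPM in newborn and 472 and 429 CPM in P14 mast cell or basophil-like LK cells, against 79.8 to 98.3 in HSC-like cells. Runx1 was at 336 to 379 CPM in the same mast cell or basophil-like sums and at 139 to 188 in HSC-like cells. Most cells of that class lay in cluster 17, whose top 10 genes by fold also held the eosinophil markers Prg2 and Prg3. Tal1 was at 79.9 to 89.8 CPM in erythroid-like cells in all 8 libraries and at 53.5 to 63.1 in HSC-like cells, 2 ranges that do not overlap. In neutrophil progenitor-like cells it was at 9.70 to 14.8 CPM. Of the 8 members 5 had their highest median in HSC-like cells. The share of all genes with their highest median there was not counted.

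**Figure D2:**
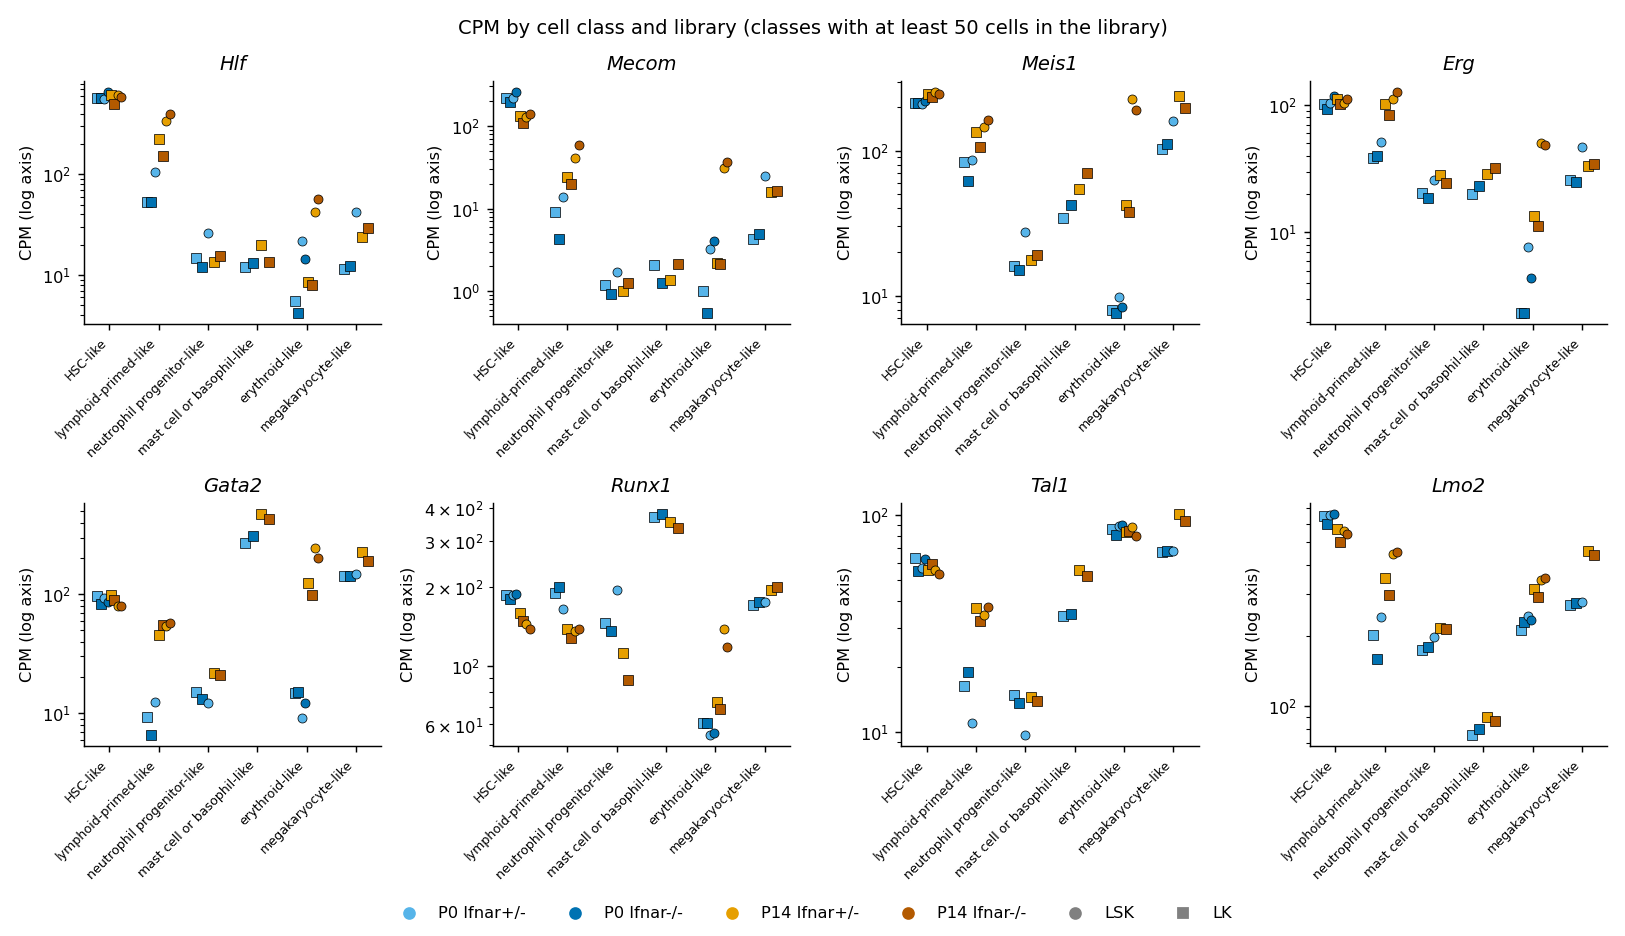
CPM of 8 members on a log axis by cell class; each point is the sum over the cells of 1 class in 1 library with at least 50 cells, circles are LSK and squares LK, and the colour gives age and genotype. Hlf and Mecom are highest in HSC-like cells, Gata2 and Runx1 in mast cell or basophil-like cells, and Tal1 stays between 79.9 and 89.8 CPM in erythroid-like cells.

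Within HSC-like cells the fractions were close. No member was 1.5-fold apart between LSK and LK in all 4 pairs, where 0.00903% of 11069 tested genes were higher and 0.0361% lower by that rule. Hlf had log2 ratios of -0.03, 0.21, -0.02 and 0.22, and Mecom -0.02, 0.39, -0.03 and 0.36. With each shared class given equal weight, 0 members were called for LSK against LK in place of 4. For Mecom in newborn Ifnar-/- cells the log2 ratio was then 0.41 in place of 4.51, over only 2 shared classes. Fewer cells of a type and less RNA per cell cannot be told apart in the library sums.

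In other classes the fractions differed. Erythroid-like LSK cells, 62 to 68 in a library, had Hlf at 21.7, 14.3, 42.6 and 57.2 CPM in the order of the pairs above, against 5.51, 4.20, 8.48 and 7.99 CPM in LK. Hlf, Mecom and Erg were at least 1.5-fold higher in LSK in each of the 4 pairs of this class, beside 6.86%, 7.57%, 17.3% and 25.2% of genes, and Meis1, Gata2 and Runx1 were so in both P14 pairs. In the newborn Ifnar+/- pair Hlf was found in 4.55% and Mecom in 1.52% of the thinned LSK cells, within the shares read as background above, so no difference is read from that pair. In the P14 pairs Hlf was found in 20.6% and 29.0% of LSK cells. In newborn Ifnar+/- erythroid-like cells Gata2 was called lower in LSK, at 9.20 against 14.9 CPM, beside 5.59% of genes. Gata2 was at 246 and 203 CPM in P14 erythroid-like LSK cells against 125 and 97.9 in LK, the direction opposite to that of the library sums. The class was made up differently in the fractions: the largest part lay in cluster 7 in newborn LK and in cluster 9 in newborn LSK libraries, and in P14 Ifnar+/- in cluster 13 in LK and cluster 14 in LSK. In P14 Ifnar-/- it lay in cluster 13 in both fractions, with 835 of 1428 LK and 40 of 62 LSK cells. In lymphoid-primed-like cells Hlf was called higher in LSK in all 3 pairs with at least 50 cells on both sides, beside 2.49%, 3.36% and 7.42% of genes. The P14 Ifnar-/- pair had it at 403 CPM in LSK and 154 in LK, and Mecom, Meis1, Erg and Lmo2 were called there too. In newborn Ifnar+/- mice, the only pair with enough cells, megakaryocyte-like cells had Hlf, Mecom, Meis1 and Erg called higher, beside 10.3% of genes, and neutrophil progenitor-like cells had Hlf, at 26.0 against 14.6 CPM, beside 14.2%. Meis1 and Mecom passed the limit there too, but Meis1 was found in 7.94% of LSK and 10.8% of LK cells, and Mecom, with 6 UMI in LSK, had an interval that includes 0, so no order is read for either. The part of free RNA, which held more Hlf in the LSK libraries, was not tested.

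P14 against P0 asks how the factors differ between newborn and 14-day-old mice. Across the 4 pairs 0 of 8 members were 1.5-fold higher in all and 0 were lower in all, beside 3.24% and 2.58% of 13152 tested genes. The single pairs gave other counts. In LK cells Hlf, Mecom, Meis1, Erg and Gata2 were at least 1.5-fold higher at P14 in both genotypes, beside 16.8% of genes in Ifnar+/- and 15.8% in Ifnar-/-. In LSK cells the Ifnar+/- pair had Hlf and Meis1 higher by that much, beside 10.8% of genes, and the Ifnar-/- pair had Mecom lower, beside 12.7%. With TMM scaling 3 of these calls were lost, Mecom in LK Ifnar+/- at 0.55 and, in LSK Ifnar+/-, Hlf at 0.49 and Meis1 at 0.56. With equal weight for each shared class Mecom turned to -0.44 and -0.47 in the LK pairs. Other calls fell under 1.5-fold with this weighting. Hlf went to 0.43 and 0.12 in LK Ifnar+/- and Ifnar-/-. In LK Ifnar-/- Meis1 went to 0.55 and Erg to 0.50, and in LSK Ifnar-/- Mecom went to -0.576. Gata2 in both LK pairs and Meis1 and Erg in LK Ifnar+/- stayed at least 1.5-fold higher.

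Gata2 had the largest ratios in LK, 1.16 and 1.15 in Ifnar+/- and Ifnar-/-, followed by 0.53 and 0.11 in LSK. Meis1 had 0.97 and 1.02 in LK and 0.66 and 0.22 in LSK, on the P14 side in all 4 pairs. Hlf had 0.91 and 0.99 in LK, 0.60 in LSK Ifnar+/- and -0.23 in LSK Ifnar-/-. Mecom had 0.72 and 1.14 in LK, 0.28 in LSK Ifnar+/- and -0.77 in LSK Ifnar-/-. Both genes thus changed sides in the pair that holds the newborn LSK Ifnar-/- library. Without that library, an alternative chosen after the data were seen, 2 members, Hlf and Meis1, were called higher in the 3 pairs left. These include the LSK Ifnar+/- pair whose calls TMM scaling removes. The share of all genes higher in these 3 pairs was not counted.

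Liver cell markers moved with age as well. All 7 were detected in each newborn library, with sums of 10.8 to 13.9 CPM, while Alb, Ttr, Serpina1a and Fgb were at 0 in all P14 libraries, where the other 3 summed to 5.07 to 9.12 CPM. Male cells were counted among the cells with only Y-linked or only Xist RNA. They were 26.0% and 35.9% of these cells in newborn LK and LSK Ifnar+/- against 63.7% and 63.8% at P14. In Ifnar-/- they were 26.5% and 31.1% against 34.7% and 38.8%. The part of liver cells and of sex in the members' differences was not tested.

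Runx1 had -0.02, -0.23, -0.29 and -0.31, on the P0 side beyond counting error in 3 pairs and past 1.5-fold in none, but equal class weights turn both LSK pairs to 0.04 and 0.08. Tal1 had -0.19, 0.06, 0.26 and -0.22, and Lmo2 had 0.38, 0.30, 0.06 and -0.30. Sox17, with 45 of its 46 UMI in newborn libraries, is too rare for a ratio. The members' medians were 0.81, 0.92, 0.30 and -0.23, beside 0.14, 0.14, 0.07 and -0.05 over all genes tested. Of the listed genes 3 were called, where 3.24% of all genes tested were higher and 2.58% lower. Of 15 tested relatives of the members Dbp, a relative of Hlf, was higher at P14, with log2 ratios of 0.95, 0.93, 1.06 and 0.72, and Sox18 was lower. Of 14 stem cell surface and target genes Fgd5 was lower, with -1.21, -0.97, -1.22 and -1.65. The other lists had 0 calls.

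The HSC-like cells of the 2 ages formed different clusters. Cluster 6 held 270 of 270, 183 of 183, 962 of 966 and 1392 of 1394 of them in the newborn libraries and at most 5 in a P14 library, where clusters 1 and 12 held the rest, so age and cluster cannot be told apart in a simple sum. Over all HSC-like cells Mecom was lower at P14 in all 4 pairs, with log2 ratios of -0.74, -0.86, -0.75 and -0.89, beside 3.12% of genes that were lower by the 1.5-fold rule. That call rests on which P14 cluster is read. It also leaves out the unnamed newborn cluster 3, where Mecom was at 59.6 to 156 CPM. No ratio was taken with that cluster included. Mecom was at 218, 196, 216 and 257 CPM in the 4 newborn libraries of cluster 6, in the order LK Ifnar+/-, LK Ifnar-/-, LSK Ifnar+/-, LSK Ifnar-/-. In cluster 1 at P14 it was at 91.8, 81.3, 91.1 and 102 CPM, and in cluster 12 at 274, 238, 259 and 258 CPM. Cluster 12 over cluster 6 gave log2 ratios of 0.33, 0.28, 0.27 and 0.01, opposite in direction to the whole class in 3 pairs and within counting error of 0 in LSK Ifnar-/-.

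Hlf had 576, 570, 567 and 659 CPM in cluster 6, 524, 444, 531 and 503 in cluster 1, and 980, 798, 901 and 842 in cluster 12. The 3 clusters did not overlap for this gene, and the highest values were at P14. Meis1 was the only member called for cluster 12 over cluster 6, with log2 ratios of 0.61, 0.62, 0.73 and 0.63, beside 1.86% of 6888 tested genes that were higher. Gata2 had 0.47, 0.88, 0.53 and 0.60 there. Runx1 had -0.01, -0.14, -0.15 and -0.10 in the same pairs, where the LK intervals include 0.

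Cluster 12 had the fewest UMI of the 3, at 0.570 of the median of its own libraries, against 0.658 in cluster 6 and 0.771 in cluster 1. Its part in the differences was not tested. Procr and Mecom were among the top 10 genes by fold of both cluster 6 and cluster 12, and Hlf was among those of cluster 1, whose top 10 held none of the HSC markers.

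**Figure D3:**
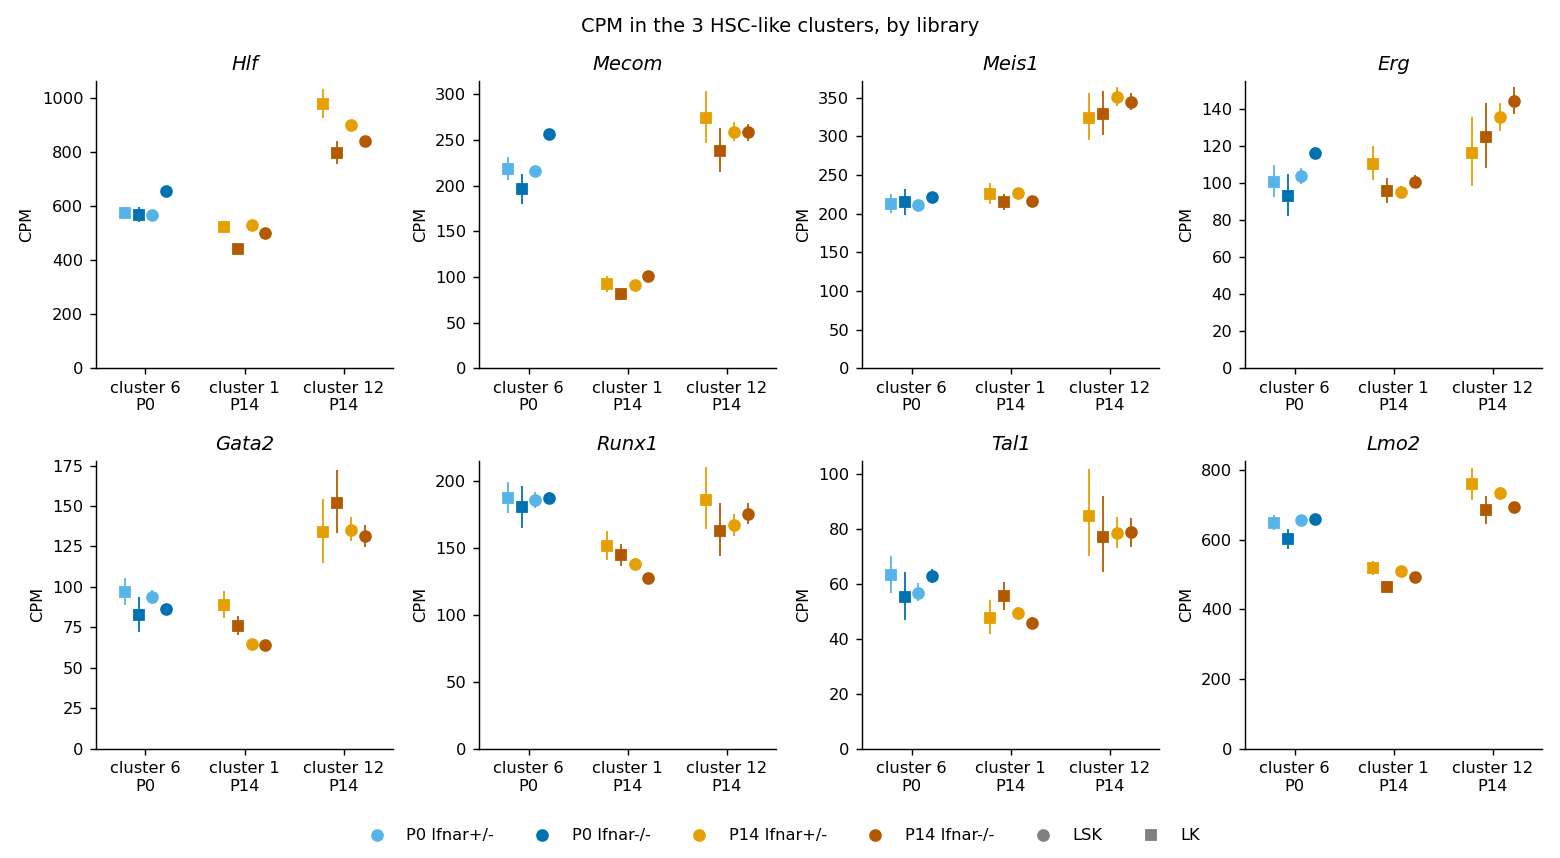
CPM of 8 members in the 3 HSC-like clusters, cluster 6 from the newborn and clusters 1 and 12 from the P14 libraries; each point is 1 library with its 95% counting interval, circles are LSK and squares LK. Mecom lies between 196 and 257 CPM in cluster 6, between 81.3 and 102 in cluster 1 and between 238 and 274 in cluster 12.

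Erythroid-like LK cells showed another difference with age. Hlf, Mecom, Meis1, Gata2 and Erg were called higher at P14 in both genotypes, beside 21.7% and 19.4% of genes. The shares of cells with Hlf and Mecom there are those read as background, so no order is read for these 2 genes. Gata2 was at 14.9 and 15.1 CPM at P0 and at 125 and 97.9 CPM at P14, and Meis1 was at 7.98 and 7.59 CPM at P0 and 42.4 and 37.8 CPM at P14. Tal1 was level in the same sums, with 85.7 and 80.6 CPM at P0 and 83.2 and 83.8 CPM at P14. Here too different clusters made up the class. The newborn cells lay in clusters 7, 9 and 20, where Gata2 was at 3.81 to 26.5 CPM. The P14 cells lay in clusters 13 and 14, where it was at 70.8 to 85.9 and at 187 to 233 CPM. In lymphoid-primed-like cells 7 of 8 members, Mecom among them, were called higher at P14 in LK Ifnar+/-, LK Ifnar-/- and LSK Ifnar+/-, beside 8.76%, 11.4% and 12.6% of genes. Runx1 was called lower in LK Ifnar-/-, beside 3.84%. Different clusters made up the lymphoid-primed-like class as well. The largest part lay in cluster 18 in the newborn libraries of these pairs, with 68 of 135 cells in LK Ifnar+/-. At P14 it lay in cluster 15, with 68 of 140 cells in LK Ifnar+/-. Hlf was at 24.9 to 75.2 CPM in cluster 18 and 224 to 427 in cluster 15, and Mecom at 2.31 to 9.79 and 29.7 to 75.2. The part of this mix in the calls was not tested. Megakaryocyte-like LK cells had Hlf, Mecom, Meis1 and Lmo2 called higher in both genotypes, beside 16.2% and 12.8%. In the sums of these classes Mecom was thus opposite to its HSC-like call.

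Ifnar-/- against Ifnar+/- asks whether the loss of type I interferon signalling goes with a change in these factors. In all 4 pairs together 0 of 8 members were higher and 0 were lower by 1.5-fold, beside 0% and 0.409% of 12718 tested genes. The largest ratios were in newborn LSK cells. There Hlf, with a log2 ratio of 0.84, and Mecom, with 1.27, were called higher in Ifnar-/-, beside 13.4% of genes. Tal1 had 0.49, Meis1 0.45, Erg 0.43, Gata2 0.43, Lmo2 0.31 and Runx1 -0.06. Over 15 alternatives for this pair, which include the single clusters read below, Hlf went as low as 0.20 and Mecom 0.25. Gata2 went to -0.11 and Lmo2 to -0.02.

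In newborn LK cells Hlf, Mecom, Meis1, Erg, Gata2 and Tal1 were on the opposite side of 0. Mecom had a log2 ratio of -0.62 and was called lower, beside 2.95% of genes. TMM scaling shifts this pair by only 0.04, which puts Mecom just under the limit. Hlf had -0.40 and Erg -0.23. At 14 days LK cells had Hlf at -0.32, Runx1 at -0.28 and Erg at -0.27, and none of the 8 was called there, where 0.785% of genes were higher and 2.39% lower. In P14 LSK cells Mecom had 0.22 and the other 7 lay between -0.08 and 0.09, with 0.821% and 1.19% of genes called. The members' medians in newborn LK, newborn LSK, P14 LK and P14 LSK were -0.17, 0.44, -0.18 and 0.01, beside -0.03, 0.14, -0.03 and 0.01 over all genes. Among P14 cells with only Y-linked or only Xist RNA, 63.7% and 63.8% in Ifnar+/- and 34.7% and 38.8% in Ifnar-/- were male. The part of sex in the P14 values was not tested.

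**Figure D4:**
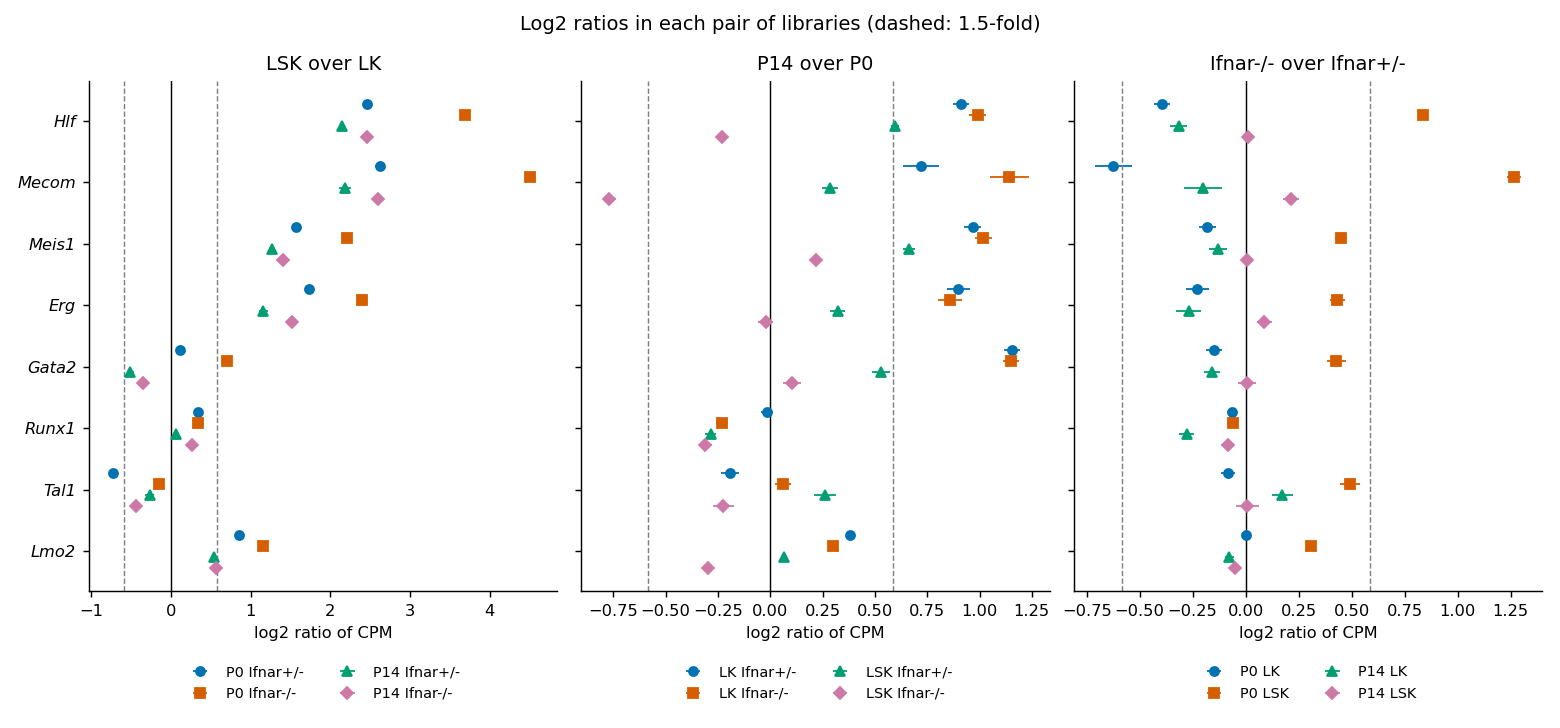
Log2 ratios of CPM for 8 members in the 12 pairs of libraries, with 95% counting intervals; dashed lines mark 1.5-fold. Hlf, Mecom, Meis1 and Erg lie beyond the right line in all 4 LSK over LK pairs, and in the genotype panel the newborn LSK pair reaches 0.84 for Hlf and 1.27 for Mecom.

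The newborn LSK libraries also differed in their cells. The Ifnar+/- library had 18.9% HSC-like cells and the Ifnar-/- library 40.2%. The 10 HSC markers were all detected in both and summed to 350 CPM and 595 CPM. Markers of other cells moved too, with sums in Ifnar+/- and Ifnar-/- of 1206 and 2342 CPM for 10 erythroid, 861 and 556 for 8 neutrophil progenitor, 108 and 36.7 for 7 monocyte progenitor and 273 and 211 for 8 lymphoid-primed markers, all detected in both. Their part in the members' differences was not tested. Lymphoid-primed-like cells were 6.58% and 0.691%. Within the HSC-like cells of these libraries Hlf had a log2 ratio of 0.22 and Mecom of 0.26, and no member was called, where 2.43% of genes were higher.

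In erythroid-like cells, 66 and 65 in the newborn LSK libraries, Hlf was at 21.7 CPM in Ifnar+/- and 14.3 in Ifnar-/- and was called lower, beside 1.80% of genes, but it was found in only 4.55% of the thinned Ifnar+/- cells and in more of the Ifnar-/- cells, so no direction is read there. Single clusters were read as a check chosen after the data were seen. Of the 4 clusters with at least 50 cells in both newborn LSK libraries, Hlf was higher in Ifnar-/- beyond counting error in 4, with log2 ratios of 0.22 to 0.83. Mecom was higher in 4 as well, with 0.25 to 1.03, and in clusters 2, 3 and 11 by at least 1.5-fold, where 3.37%, 877 of 12521 and 3.76% of genes were, but not in cluster 6, where 307 of 12260 genes were. Clusters 2, 3 and 11 were unnamed, and the top 10 genes by fold of clusters 2 and 11 held the interferon genes Isg15 and Rtp4. Cluster 2 held 30.2% of newborn LSK Ifnar+/- and 10.5% of Ifnar-/- cells, and cluster 11 held 14.7% and 5.47%. Whether these clusters hold like cells in the 2 genotypes was not tested. In cluster 11, which carried the largest differences, Mecom was at 24.5 CPM in Ifnar+/- and 50.02 in Ifnar-/-, and Hlf at 150 and 267 CPM. Free RNA of the newborn LSK libraries also held more in Ifnar-/-, with Mecom at 61.5 and 130 CPM and Hlf at 209 and 374 CPM in that order. The part of free RNA in these differences was not tested. Meis1 and Erg were higher beyond counting error in 4 clusters, by 0.07 to 0.28 and by 0.13 to 0.24. Runx1 had -0.26 to 0.01, lower beyond counting error in 3. In the newborn LK libraries Mecom was lower in 10 of 12 clusters, in 5 beyond counting error, while Hlf was lower in 7 and higher in 5, in 4 and 1 beyond counting error.

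Surface antibody tags gave a readout of the same cells that did not enter the choice of genes or the clusters. CD201, the Procr protein, and CD150 are known to be high on stem cells, and CD48 is known to be low. Cells of each library were sorted by the share of their tags that came from 1 antibody. They were cut into 4 equal bins, and the top bin was set against the bottom bin. All tags of a cell share its total, so more of 1 tag leaves less for the others and the tags are not independent of each other. In LSK cells Hlf, Mecom, Meis1, Gata2, Tal1 and Lmo2 were at least 1.5-fold higher in the CD201 top bin in all 4 libraries, beside 14.4% of genes.

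Mecom went from 21.7 CPM in the lowest through 33.3 and 58.6 to 183 CPM in the highest CD201 bin of newborn LSK Ifnar+/- cells. In newborn LSK Ifnar-/- cells the 4 bins had 57.8, 120, 185 and 331 CPM. In P14 LSK cells they had 25.5, 48.8, 92.8 and 198 CPM in Ifnar+/- and 32.9, 61.6, 111 and 215 CPM in Ifnar-/-. The order held in every LSK library, with log2 ratios of 3.08, 2.52, 2.95 and 2.71. Hlf had 1.70, 1.07, 2.15 and 1.96. Runx1 had -0.11, 0.32, 0.10 and 0.26. The median UMI per cell was lower in the top than in the bottom CD201 bin of all 4 LSK libraries, for example 22876 against 39208 in newborn Ifnar+/-, and its part was not tested.

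CD150 ordered the genes differently. In LSK cells Mecom, Meis1, Gata2 and Tal1 were called higher in the top CD150 bin, beside 8.38% of genes. Gata2 had log2 ratios of 1.80, 1.66, 2.24 and 2.12, larger than its 0.81, 0.99, 0.75 and 0.70 across CD201 bins in every library. In P14 LSK Ifnar+/- it went through 32.4, 38.9 and 62.5 to 154 CPM. Hlf had 0.97, 0.54, 0.66 and 0.51, smaller than across CD201 bins in every LSK library. In LK cells Meis1, Gata2 and Tal1 were called higher, beside 7.57% of genes, and Erg was called lower there, beside 1215 of 11084 genes, with -0.73, -0.96, -0.76 and -0.95.

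CD48 ran the other way in LSK cells, and the part of the shared tag total in this was not tested. Hlf, Mecom, Meis1, Gata2 and Tal1 were called lower in the top CD48 bin, beside 13.2% of genes, and Mecom had log2 ratios of -2.73, -2.29, -2.93 and -2.62. In LK cells Gata2, Runx1 and Erg were higher with CD48 in all 4 libraries, beside 6.51%, and Tal1 was lower, beside 5.52%. CD117, the Kit protein used for the sort, had opposite directions in the fractions for Hlf and the same direction for Tal1. Hlf, Mecom, Gata2 and Tal1 were higher in the top CD117 bin of LSK cells, beside 7.02% of genes. In LK cells Hlf, Meis1, Runx1 and Erg were lower, beside 17.6%, and Tal1 was higher, beside 6.86%. CD201 in LK cells went with Hlf, Mecom and Tal1, beside 4.90% of genes.

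**Figure D5:**
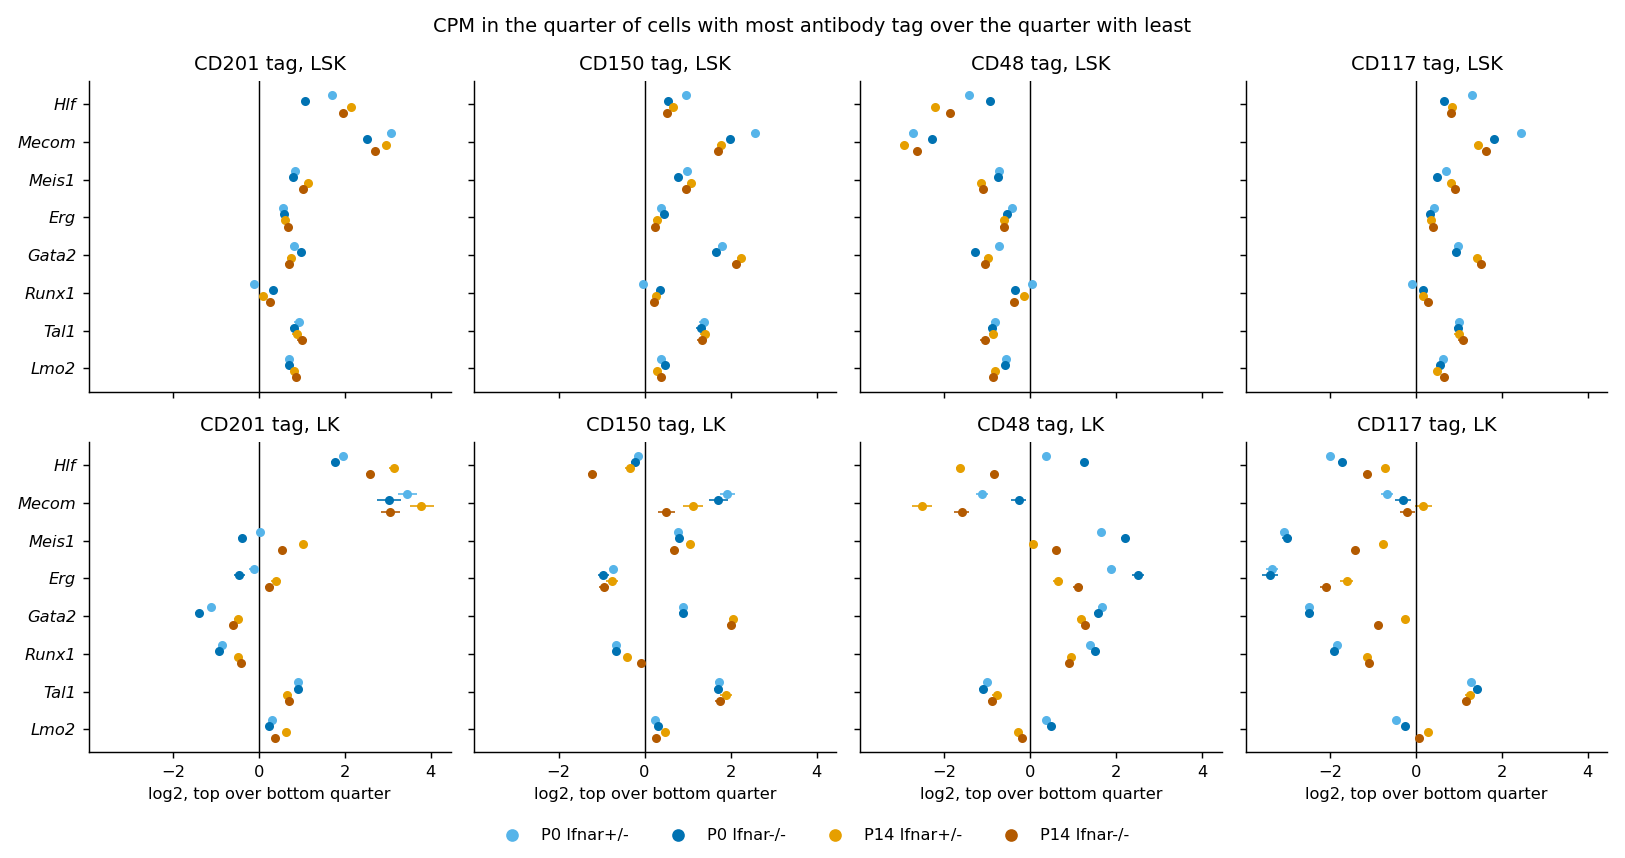
Log2 ratio of CPM in the top over the bottom bin of cells by antibody tag, for LSK (upper row) and LK (lower row) libraries, with 95% counting intervals. Mecom is 2.52 to 3.08 higher with CD201 in LSK cells and -2.29 to -2.93 with CD48, and Erg and Meis1 are on opposite sides of 0 for CD117 in LSK and LK cells.

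Mecom, Meis1, Erg and Lmo2 were found more often in cells with Hlf than in cells without it in all 8 libraries, beyond counting error. In this paragraph that means that the intervals of the 2 shares, taken over cells and not over mice, did not overlap. The share of all genes found more often in cells with Hlf was not counted, so these members are not set against a background. After thinning, a newborn LSK Ifnar-/- cell with Hlf had Mecom in 64.1% of cases and one without Hlf in 23.8%. In newborn LK Ifnar+/- the shares were 31.3% and 2.22%. The difference was between 24.3 and 40.3 percentage points in the 8 libraries for Mecom, 15.7 to 38.5 for Meis1, 10.5 to 28.3 for Erg and 9.47 to 21.2 for Lmo2. For Gata2 it was 1.252 to 14.9 and for Runx1 -0.73 to 16.6, each beyond counting error in 6 libraries. For Tal1 it was -6.03 to 6.74, with both signs. Inside HSC-like cells the shares of Mecom differed beyond counting error in all 4 P14 libraries, for example 57.6% with and 33.9% without Hlf in LSK Ifnar+/-, and in newborn LSK Ifnar+/-, with 72.8% and 54.2%. In newborn LK Ifnar+/- HSC-like cells they were 69.3% and 78.9%, with only 19 cells without Hlf. At P14 this class joins clusters 1 and 12. Hlf was found in 85.0% to 90.8% of cluster 1 and 97.3% to 99.4% of cluster 12 cells. Mecom was found in 39.8% to 48.3% and 72.3% to 86.4% of them. Cluster and the pairing of the 2 genes therefore cannot be told apart in the P14 libraries. The median number of members found in a thinned cell was 2 in both newborn LK libraries, 3 in both P14 LK libraries, 4 in newborn LSK Ifnar+/- and 5 in the other 3 LSK libraries.

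Over the 37 sums of a class in a library, which share their library and depth, Pearson's r of log2(CPM + 1) described likeness. Hlf and Mecom had an r of 0.94 and Meis1 and Erg of 0.87, while Tal1 and Hlf had 0.02 and Gata2 and Hlf 0.10. Among 9725 genes with at least 5 CPM on average, those most like Hlf were Tnip3, Robo4 and Hoxa3, with an r of 0.98 each. Those most like Mecom were Nkx2-3, Col4a1 and Gm20467, and those most like Erg were Afap1l1, Fnbp1 and Rcn2. Meis1 was most like Ctla2a, Fnbp1l and Zfp664, and Gata2 most like Pafah2, Slc18a2 and Tnik, with r of 0.94, 0.93 and 0.93. Tal1 was most like C530008M17Rik, Zfpm1 and Pcyt1b, and Runx1 most like Emid1, Auts2 and Glb1.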

How the data were processed

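CITE-seq libraries were made with 10x 3′ chemistry (version 3.1), per the labels' protocols. The authors deposited raw count matrices of UMI without a cell filter. Cell Ranger 6.0.1 and build mm10 are named in the submitters' processing notes, whereas the file headers name Cell Ranger 4. Cells with at least 7500 gene UMI and at most 10% mitochondrial UMI were kept, and UMI were summed per library and scaled to a common total (CPM). Log2 ratios used 0.5 added counts. Intervals were exact at 95% (Poisson, conditional binomial or Clopper-Pearson) and cover counting error only. Each group had 1 library and no test between conditions was run, although a fit of age, fraction and genotype without interactions would leave residual degrees of freedom. Ratios were taken within pairs of libraries matched on the other 2 factors. A call meant a 1.5-fold or larger ratio with 1 sign in every one of the 4 pairs, or in the single pair or cluster named, among genes with at least 50 UMI in 1 library of every pair. Shares were taken after thinning to 7500 UMI. Clustering used 2000 variable genes, 30 components, 15 neighbours and Leiden resolution 1 (igraph 0.11.9, scanpy 1.11.5). No doublets were removed from the values reported, since Scrublet's own threshold marked 0.0390% to 0.288% of the cells of an LSK library, too few to have worked there, and 0.788% to 2.91% of an LK library, and removal at a fixed rate was an alternative. TMM factors came from edgeR 4.0.16. The call and its intervals were run on simulated Poisson counts with no spread between libraries, so that run covers counting error only. The named genes were the 9 members, list genes called in all 4 pairs (at most 8 per list) and the 3 genes most like each member. Those for Sox17 are left out because it was at or near 0 in all classes, and those for Lmo2 are not reported here. The members and lists were chosen with earlier results of these data known. No sequences are printed.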

Additional observations from a re-analysis of the deposited data

Results flagged for a closer look

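The 3 genes below had effects on opposite sides of 0, each beyond counting error, in all pairs of the groups compared. These differences between groups were not tested.

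Gata2 differed by age in LSK over LK, with log2 ratios of 0.12 in newborn Ifnar+/-, 0.70 in newborn Ifnar-/-, -0.51 in P14 Ifnar+/- and -0.34 in P14 Ifnar-/-. With TMM scaling the newborn Ifnar+/- pair shifts by -0.25 and changes sides. With equal weight for each shared cell class the P14 ratios were 0.50 and 0.49 and the newborn Ifnar-/- ratio was 0.01. The newborn Ifnar+/- pair was then level. With this weighting neither the newborn LSK side nor the P14 LK side held. Its level in erythroid-like LK cells was 14.9 and 15.1 CPM at P0 and 125 and 97.9 CPM at P14.

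Mecom differed by fraction in Ifnar-/- over Ifnar+/-, with log2 ratios of -0.62 in newborn LK and -0.20 in P14 LK against 1.27 in newborn LSK and 0.22 in P14 LSK cells. Erg did so as well, with -0.23 and -0.27 in LK against 0.43 and 0.088 in LSK cells.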

How the results depend on the processing

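No test over the 4 matched pairs of a comparison was run. Over 11 alternatives planned for the cells, scaling and weighting, 1008 of 1056 log2 ratios kept their sign, and 394 of the 396 that were at least 1.5-fold did, but only 349 of those 396 stayed at least 1.5-fold, 31 of 36 with TMM, 30 of 36 with median-of-ratios and 8 of 36 with equal class weights. The 2 that reversed were Mecom at P14 over P0 in LK with equal weight for each shared class, at -0.44 in Ifnar+/- and -0.47 in Ifnar-/-. Equal class weights, which leave out the unnamed cells, also gave 0 members higher in LSK in place of 4, and 1 member, Gata2, higher at P14 in place of 0. Read in HSC-like cells alone, which leave out the unnamed cluster 3, 0 members were higher in LSK and 1, Mecom, was lower at P14. Cluster 12 against cluster 6 gave 1, Meis1, higher at P14. Leaving out the newborn LSK Ifnar-/- library gave 2 members, Hlf and Meis1, higher at P14 in place of 0, and 4 members higher in LSK as before. The shares of all genes called without that library or with equal class weights were not counted. With a minimum of 10 UMI for the background, 519 genes were lower at P14 in place of 339, and 3 were higher in Ifnar-/- in place of 0. The HSC-like, single-cluster and left-out-library settings were chosen after seeing the data. All other settings kept the 4 LSK calls, or gave 5, with Lmo2, at the lower fold limit. The depth leaves Sox17 unmeasured beyond its few UMI, and 1 library per group leaves the spread between mice unknown.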
